A study of Homo sapiens with 8 samples.

Results

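The mitochondrial genome encodes 37 of the 60718 genes in the deposited input count table, and all 37 were taken because their listed chromosome is chrM. They are 13 mRNAs, 2 rRNAs and 22 tRNAs. The reference strand (plus) carries 28 of them, and the minus strand carries 9, which are MT-ND6 and 8 tRNAs. Input RNA was compared between METTL5-WT and METTL5-KO cells, with 2 libraries of each. Both genotypes were cells labelled HepG2, an established human liver cancer line, and each genotype was expanded from isolated clones. In METTL5-KO, exons of METTL5 were removed with CRISPR-Cas9; METTL5 is the enzyme that adds N6-methyladenosine to the small-subunit rRNA of cytosolic ribosomes. All cells, controls included, received cycloheximide at 100 µg/mL for 7 min before lysis. Which clone gave which replicate is not stated, so an effect of clone and an effect of genotype cannot be told apart.

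The 4 input libraries held 10710226 to 15307257 counts. The METTL5 gene itself fell from 490 and 542 counts with METTL5 intact to 208 and 151 counts without it (log2 fold change -1.86 ± 0.18 SE, adjusted p = 7.2e-08, edgeR). The label HepG2 was checked against 10 hepatocyte and HepG2 markers, such as ALB and AFP. Their summed level was 0.473 to 0.980 CPM (counts scaled to a library of 1000000) across the 4 libraries, and 3 of the 10 had no count in any library. The 3 fibroblast markers COL1A1, COL3A1 and DCN summed to 262 to 342 CPM. Most of this was COL3A1 (200 to 296 CPM), with COL1A1 at 38.3 to 61.2 CPM and DCN at 7.40 to 11.1 CPM. The liver markers that define HepG2 were thus near 0 in every library. The part of this mismatch in any result below was not tested. Replicates also differed unequally. The chi-square per degree of freedom, which is 1 for counting error alone, was 15.3 between the METTL5-KO libraries and 3.48 between the METTL5-WT libraries. In METTL5-KO replicate 2, nuclear genes ran lower with falling GC content. The rank correlation of its difference from replicate 1 with GC was 0.54, against 0.04 between the METTL5-WT libraries, over 13799 genes. Where leaving out a METTL5-KO library changed a mitochondrial call, the value without it is given for each gene named.

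Human mitochondrial DNA is transcribed from both strands into long precursor RNAs. tRNAs lie between most mRNAs and rRNAs, and cutting the tRNAs out at their ends releases the neighbouring RNAs, so tRNA, rRNA and mRNA of a strand start from shared precursors and part later through processing, stability and decay. The 13 mRNAs encode core subunits of respiratory complexes I, III and IV and of ATP synthase, the 2 rRNAs are those of the mitochondrial ribosome, and the 22 tRNAs decode its messages. A gene-level count does not separate a mature RNA from its precursor. In these libraries, 16 of 22 tRNAs, 12 of 13 mRNAs and both rRNAs abut or overlap a neighbour on the same strand, and the counting command names no option for reads that touch more than 1 gene, which the tool then leaves out.

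The tRNA sequences that the results below turn on are given first, from hg38, read 5′ to 3′ on the coding strand as DNA with the anticodon in capitals. The first 4 are the tRNAs that passed the test between genotypes. MT-TF decodes phenylalanine (chrM:577-647, plus), MT-TV valine (chrM:1602-1670, plus), MT-TI isoleucine (chrM:4263-4331, plus) and MT-TH histidine (chrM:12138-12206, plus). MT-TP decodes proline (chrM:15956-16023, minus) and is shown as the most abundant tRNA of the other strand. MT-TN for asparagine (chrM:5657-5729, minus) and MT-TK for lysine (chrM:8295-8364, plus) are shown because they had no count in any library.
MT-TF: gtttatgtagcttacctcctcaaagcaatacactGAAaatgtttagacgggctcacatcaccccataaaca
MT-TV: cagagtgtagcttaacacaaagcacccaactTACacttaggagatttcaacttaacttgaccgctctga
MT-TI: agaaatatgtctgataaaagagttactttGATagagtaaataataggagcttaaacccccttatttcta
MT-TH: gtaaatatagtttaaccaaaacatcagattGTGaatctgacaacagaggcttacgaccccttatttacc
MT-TP: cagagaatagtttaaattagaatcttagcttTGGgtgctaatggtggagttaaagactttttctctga
MT-TN: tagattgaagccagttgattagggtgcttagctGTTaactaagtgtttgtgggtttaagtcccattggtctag
MT-TK: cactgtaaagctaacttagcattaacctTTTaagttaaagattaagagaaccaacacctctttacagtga

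Mitochondrial RNAs took 3.14% and 2.7% of input counts in METTL5-WT, against 3.04% and 2.07% in METTL5-KO. Most of these counts were rRNA, although ribosomal RNA had been depleted once. The rRNA share of mitochondrial counts was 87.1% and 85.3% in METTL5-WT, against 84.5% and 79.7% in METTL5-KO. The mRNA share was 8.67% and 9.71% against 9.05% and 10.7%, and the tRNA share was 4.20% and 4.95% against 6.41% and 9.61%. The genotypes overlapped for the mRNA share of all mitochondrial counts, while the tRNA share was higher and the rRNA share lower in both METTL5-KO libraries. Of mitochondrial counts other than rRNA, mRNAs held 67.4% and 66.2% in METTL5-WT, against 58.6% and 52.7% in METTL5-KO, and the genotypes did not overlap. The mRNA share thus depended on whether the rRNAs were counted in the total. Whether the depletion kit removes mitochondrial rRNA is not given in the sources used here, so rRNA levels are those left after depletion.

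Levels were compared between genes only per length of annotated exon (RPKM, which is CPM per kilobase; mean of the 4 libraries). MT-RNR2, the large-subunit rRNA, was at 12197, and MT-RNR1, the small-subunit rRNA, was at 4331. Of the tRNAs, MT-TF (5583), MT-TP (3865) and MT-TS2 (3395) stood highest, the last being a serine tRNA of 59 bases. MT-TF led through the METTL5-KO libraries, with a mean of 8724 RPKM there and 2442 RPKM in METTL5-WT, where MT-TP (3869), MT-TS2 (3110) and MT-TL1 (2517) stood above it. The mRNAs for the 3 mitochondrial subunits of complex IV, cytochrome c oxidase, led their class, with MT-CO3 at 1146, MT-CO2 at 452 and MT-CO1 at 382. MT-CYB, the complex III subunit cytochrome b, followed at 291. Of the complex I mRNAs, MT-ND4 was at 129, MT-ND1 at 104, MT-ND3 at 61.0, MT-ND4L at 44.1, MT-ND5 at 33.1, MT-ND6 at 27.9 and MT-ND2 at 18.5. The ATP synthase mRNAs MT-ATP6 and MT-ATP8 were at 59.9 and 16.0. These last 2 share 46 bases of 1 transcript, as MT-ND4L and MT-ND4 share 7, so their separate counts are uncertain. In this order of mRNAs, 7 of the 12 neighbouring pairs had overlapping ranges over the 4 libraries, and the steps from MT-CO3 through MT-CO2, MT-CO1 and MT-CYB to MT-ND4 did not. Of the 14 neighbouring pairs of tested tRNAs, 11 overlapped.

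**Figure D1:**
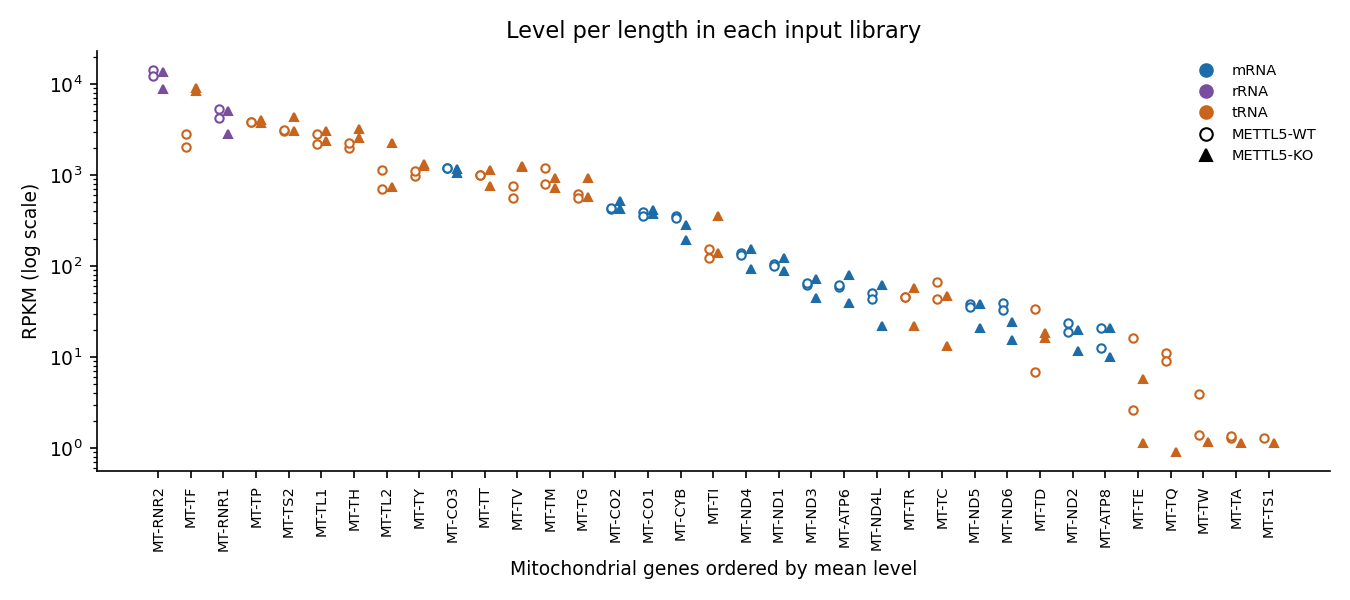
Level per length (RPKM, log scale) of the 35 mitochondrial genes with counts, ordered by mean level, in each METTL5-WT library (open circles) and each METTL5-KO library (triangles), coloured by class. Libraries at 0 cannot be drawn on this scale. MT-TF shows METTL5-KO points apart from METTL5-WT, and the genes at the far right had at most a few counts.

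As classes, only tRNAs differed by more than the spread between replicates. Summed tRNA levels were 1316 and 1337 CPM in METTL5-WT, against 1949 and 1993 CPM in METTL5-KO, a mean of 1326 ± 15.2 against 1971 ± 31.0 (SD, n = 2) and a ratio of 1.49. The rRNA sum was 27321 and 23043 CPM against 25710 and 16514 CPM, and the mRNA sum was 2720 and 2622 CPM against 2753 and 2223 CPM. In both of these classes METTL5-KO replicate 1 lay near or within the METTL5-WT values and replicate 2 lay below them. On the log2 scale the mRNA ratio was -0.10 and became 0.04 without METTL5-KO replicate 2 and -0.26 without replicate 1. The rRNA ratio was -0.25, and the same omissions gave 0.03 and -0.61. The tRNA ratio was 0.57 and stayed between 0.56 and 0.59 when any of the 4 libraries was left out. With 2 libraries against 2, an exact permutation test of a class sum cannot go below p = 0.333.

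**Figure D2:**
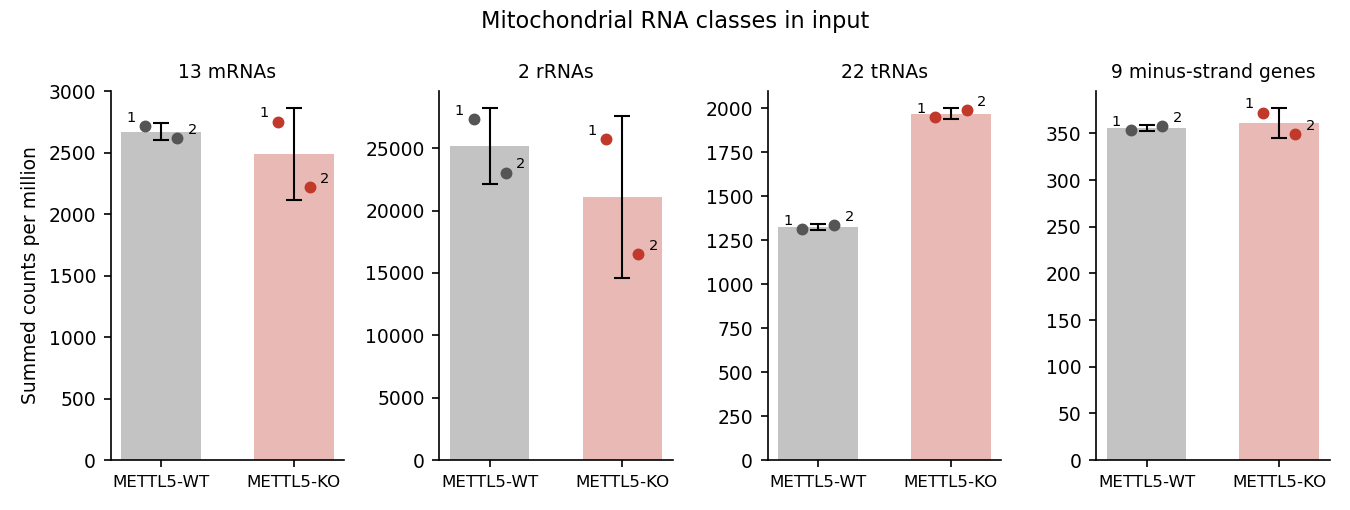
Summed CPM of the mRNAs, rRNAs, tRNAs and minus-strand genes in input. Points are libraries marked 1 and 2 by replicate, bars are means and error bars are SD of 2 libraries. The tRNA points do not overlap between genotypes, and METTL5-KO replicate 2 is the lowest rRNA library at 16514 CPM.

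The tRNA difference was larger on the plus strand, where MT-TF lies. The 14 plus-strand tRNAs summed to 983 and 996 CPM in METTL5-WT, against 1589 and 1651 CPM in METTL5-KO. The 8 minus-strand tRNAs summed to 333 and 341 CPM against 360 and 341 CPM. The minus-strand share of tRNA counts was accordingly 25.3% and 25.5% in METTL5-WT, against 18.5% and 17.1% in METTL5-KO. Of the 631 CPM by which the plus-strand tRNAs differed between genotypes, MT-TF gave 446 CPM (70.7%). Without it, a comparison chosen after seeing the data, the other 13 plus-strand tRNAs summed to 838 and 794 CPM in METTL5-WT, against 952 and 1049 CPM in METTL5-KO. The minus-strand share of the remaining tRNA counts was then 28.4% and 30.0% against 27.4% and 24.6%, a mean difference of -3.24 percentage points in place of -7.60. All 9 minus-strand genes together were at 353 and 358 CPM in METTL5-WT, against 372 and 350 CPM in METTL5-KO. That is a ratio of 1.02, within the spread of the METTL5-KO libraries. MT-TP alone gave 263 CPM in each METTL5-WT library and 270 and 255 CPM in METTL5-KO.

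MT-TF made up most of the tRNA difference. It accounted for 446 of the 645 CPM between the genotype means (69.2%), and the 4 called tRNAs together for 84.6%. Without MT-TF, the other 21 tRNAs summed to 1171 and 1135 CPM in METTL5-WT, against 1312 and 1391 CPM in METTL5-KO. These values still did not overlap, at a ratio of 1.17, and 60.7% of all genes tested did not overlap either. Of the remaining difference, MT-TH and MT-TV gave 52.3 and 39.3 CPM, with both METTL5-KO libraries above METTL5-WT. MT-TL2 and MT-TS2 gave 40.7 and 33.6 CPM, with only METTL5-KO replicate 2 above METTL5-WT. The share of tRNA counts in MT-TF was 11% and 15.1% in METTL5-WT, against 32.7% and 30.2% in METTL5-KO.

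Gene by gene, 30 of the 37 members had enough counts to be tested, namely all 13 mRNAs, both rRNAs and 15 tRNAs. Of these, 6 passed an adjusted p of 0.05 in edgeR (quasi-likelihood, 2 libraries against 2, Benjamini-Hochberg over all 14054 genes tested), 4 higher and 2 lower in METTL5-KO. Over all genes tested, 22.4% passed, 11.8% higher and 10.6% lower, so a count of 6 of 30 is near the background and is not a result about mitochondrial genes as a set. The calls split by class, since the 4 higher genes were tRNAs (of 15 tested) and the 2 lower genes were mRNAs (of 13 tested). The median log2 fold change was 0.24 for the tested tRNAs, -0.15 for the mRNAs, -0.27 for the rRNAs and -0.0043 for all genes tested. CPM did not overlap between genotypes for 7 of the 30, against 60.7% of all genes tested, with METTL5-KO above for 4 (30.8% of all genes tested) and below for 3 (29.9%). The number of mitochondrial calls depended on single libraries, and so did the number over all genes. The median log2 fold change of the mRNAs was -0.10 without METTL5-WT replicate 1 and -0.18 without METTL5-WT replicate 2. It was -0.63 without METTL5-KO replicate 1 and 0.16 without METTL5-KO replicate 2. For the tRNAs the same omissions gave 0.29, 0.26, -0.0038 and 0.26.

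**Figure D3:**
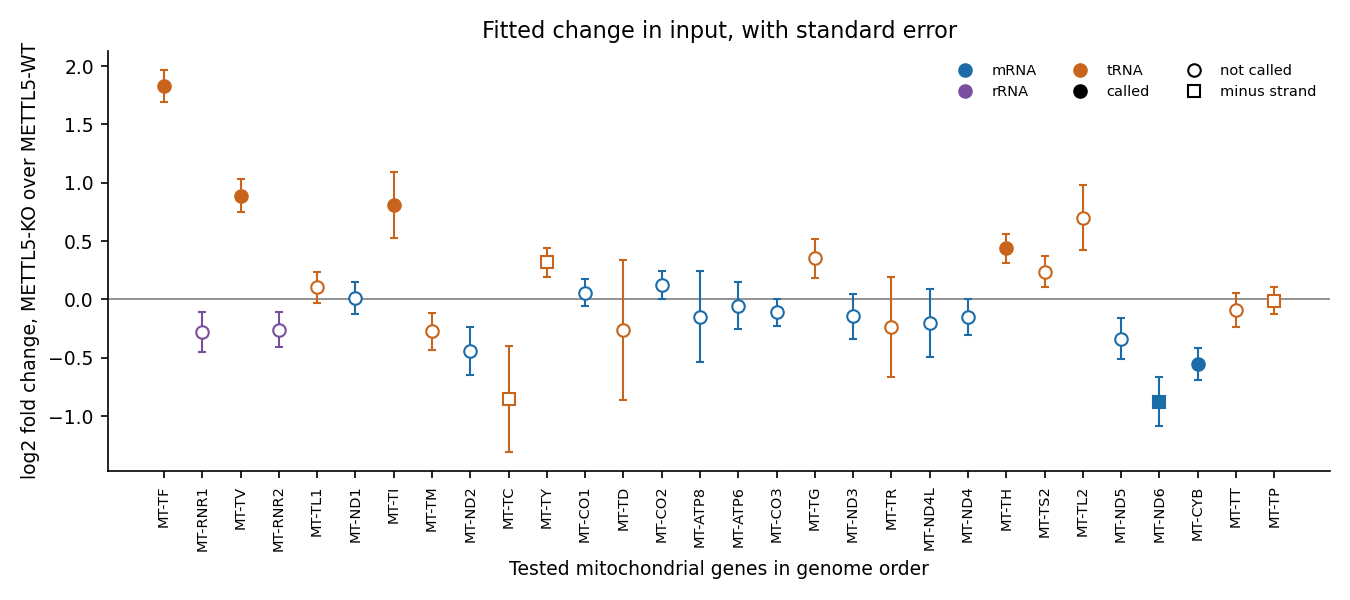
Fitted log2 fold change of METTL5-KO over METTL5-WT (points) with its standard error (bars) for the 30 tested mitochondrial genes in genome order. Filled points passed the test and squares mark the minus strand. MT-TF stands at 1.83, and the only filled points under 0 are MT-ND6 and MT-CYB.

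MT-TF (ENSG00000210049.1) had the largest change of the 30 tested mitochondrial genes. It is the first gene of the plus strand, directly before MT-RNR1. It had 1620 and 2166 counts in METTL5-WT, against 8068 and 9218 counts in METTL5-KO, which is 144 and 202 CPM against 637 and 602 CPM. Both METTL5-KO libraries stood far above both METTL5-WT libraries. The rise was 3.56-fold, a log2 fold change of 1.83 ± 0.14 (SE, adjusted p = 5.4e-10, edgeR), and it lay between 1.61 and 2.09 when any single library was left out. The adjacent rRNA was not called. For every 100 counts of MT-RNR1 there were 2.88 and 5.03 counts of MT-TF in METTL5-WT, against 13.3 and 22.3 in METTL5-KO.

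MT-TV (ENSG00000210077.1) lies between the rRNA genes, with no base between it and either. Its counts were 590 and 410 in METTL5-WT, against 1086 and 1282 in METTL5-KO, or 52.6 and 38.3 CPM against 85.7 and 83.8 CPM. The METTL5-KO libraries were close to each other and above METTL5-WT, with a log2 fold change of 0.89 ± 0.14 (SE, adjusted p = 5.3e-05, edgeR), and the call held when any single library was left out. MT-TL1, the leucine tRNA that follows MT-RNR2 in the same cluster, was at 212 and 166 CPM against 229 and 179 CPM. Its genotypes overlapped, and its log2 fold change was 0.10 ± 0.13 (SE, adjusted p = 0.63, edgeR). The tRNAs around the rRNA genes thus differed from each other in size of change, although a test of the difference between them was not run.

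MT-TI (ENSG00000210100.1) rested on a single library. It had 119 and 90 counts in METTL5-WT, against 308 and 147 in METTL5-KO, or 10.6 and 8.40 CPM against 24.3 and 9.60 CPM. Only METTL5-KO replicate 1 was high, and replicate 2 lay between the METTL5-WT libraries. The log2 fold change of 0.81 ± 0.29 (SE, adjusted p = 0.044, edgeR) fell to 0.025 (adjusted p = 0.95) without METTL5-KO replicate 1, was 1.34 (adjusted p = 7.8e-06) without METTL5-KO replicate 2 and lost the call without METTL5-WT replicate 2 (0.65, adjusted p = 0.13). DESeq2 gave an adjusted p of 0.14.

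MT-TH (ENSG00000210176.1) opens the run of 3 tRNAs between MT-ND4 and MT-ND5, followed by MT-TS2 and MT-TL2. Its counts were 1545 and 1648 in METTL5-WT, against 2223 and 3381 in METTL5-KO, or 138 and 154 CPM against 175 and 221 CPM. The genotypes did not overlap, and the log2 fold change was 0.44 ± 0.13 (SE, adjusted p = 0.014, edgeR). The call was lost without METTL5-WT replicate 1 (0.36, adjusted p = 0.39) or METTL5-WT replicate 2 (0.52, adjusted p = 0.14), and the change was 0.26 (adjusted p = 0.031) without METTL5-KO replicate 2. MT-TS2 was at 182 and 185 CPM in METTL5-WT, against 180 and 254 CPM in METTL5-KO, where only replicate 2 stood above METTL5-WT. It was called higher without METTL5-KO replicate 1 (0.48, adjusted p = 1.3e-06, edgeR) and was at -0.04 without replicate 2. MT-TL2, the other leucine tRNA, showed the same single high library, with 50.1 and 81.0 CPM against 52.6 and 160 CPM. Its log2 fold change of 0.70 ± 0.28 (SE, adjusted p = 0.078, edgeR) was 1.30 without METTL5-KO replicate 1 and -0.32 without METTL5-KO replicate 2. These 3 neighbours were therefore higher in METTL5-KO replicate 2 than in replicate 1, whereas 25 of the 30 tested mitochondrial genes were lower.

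The other 11 tested tRNAs were not called. Their log2 fold changes ran from -0.85 for MT-TC, a cysteine tRNA with 49 and 31 counts in METTL5-WT and 11 and 47 without METTL5, to 0.70 for MT-TL2. Without METTL5-KO replicate 2, MT-TC was called lower (-2.06, adjusted p = 0.011, edgeR) and the glycine tRNA MT-TG higher (0.66, adjusted p = 1.2e-04, edgeR). Without METTL5-KO replicate 1, the methionine tRNA MT-TM was called lower (-0.46, adjusted p = 0.0031, edgeR). At an unadjusted p under 0.05, 7 of the 15 tested tRNAs passed. The share of all genes at that threshold was not computed, and it is at least the 22.4% that passed after adjustment. The 7 of 15 is thus not read as a result about tRNAs. DESeq2 called 3 of the 15, which were MT-TF, MT-TV and MT-TH, against 14.5% of all genes it tested. MT-TY, a tyrosine tRNA of the minus strand, was at 64.5 and 72.6 CPM in METTL5-WT, against 88.3 and 83.2 CPM in METTL5-KO. Its groups did not overlap, yet its log2 fold change of 0.32 ± 0.12 missed the threshold (SE, adjusted p = 0.063, edgeR), and it was called when METTL5-KO replicate 1 (0.29) or replicate 2 (0.36) was left out. Without METTL5-WT replicate 1 or 2 it was not called, with an adjusted p of 0.63 and 0.29 in edgeR. MT-TP, from the same strand, had a log2 fold change of -0.0090 ± 0.11 (SE, adjusted p = 0.97, edgeR). Of the 8 minus-strand tRNAs, 3 were tested and none was called; 1 passed at an unadjusted p under 0.05, and DESeq2 called none.

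MT-ND6 (ENSG00000198695.2; chrM:14149-14673), a complex I subunit, is the only mRNA of the minus strand. It had 228 and 186 counts in METTL5-WT, against 160 and 125 counts in METTL5-KO, or 20.3 and 17.4 CPM against 12.6 and 8.17 CPM. Both METTL5-KO libraries were below both METTL5-WT libraries. The log2 fold change was -0.87 ± 0.21 (SE, adjusted p = 0.0037, edgeR), and the call was lost without METTL5-WT replicate 1 (-0.75, adjusted p = 0.057). MT-TP, encoded on the same strand, had 1293 and 1516 counts per 100 MT-ND6 counts in METTL5-WT, against 2142 and 3119 in METTL5-KO.

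MT-CYB (ENSG00000198727.2; chrM:14747-15887) is the complex III subunit and lies on the plus strand, close to MT-ND6. It had 4508 and 4142 counts in METTL5-WT, against 4092 and 3342 in METTL5-KO, or 402 and 387 CPM against 323 and 218 CPM. It was lower in both METTL5-KO libraries, with a log2 fold change of -0.55 ± 0.14 (SE, adjusted p = 0.0054, edgeR). The change was -0.84 without METTL5-KO replicate 1 and -0.30 without METTL5-KO replicate 2, called in both. The call was lost without METTL5-WT replicate 1 (adjusted p = 0.13) or replicate 2 (adjusted p = 0.069). MT-TT, the threonine tRNA that directly follows MT-CYB, was at 65.3 and 66.6 CPM against 74.3 and 50.6 CPM. It was called lower without METTL5-KO replicate 1 (-0.37, adjusted p = 0.0044, edgeR) and was at 0.16 without replicate 2. The number of MT-TT counts per 100 MT-CYB counts was 16.2 and 17.2 in METTL5-WT, against 23.0 and 23.2 in METTL5-KO.

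The other 6 complex I mRNAs were not called with all libraries, and 5 of them were called lower when METTL5-KO replicate 1 was left out. MT-ND1 was at 101 and 95.5 CPM in METTL5-WT, against 116 and 83.6 CPM in METTL5-KO. MT-ND2 was at 24.6 and 19.6 CPM against 20.8 and 12.1 CPM, with a log2 fold change of -0.44 ± 0.21 (SE, adjusted p = 0.13, edgeR). MT-ND3 was at 21.6 and 22.5 CPM against 25.1 and 15.2 CPM. In each of these, METTL5-KO replicate 1 lay above replicate 2.
The same held for the remaining subunits. MT-ND4 was at 190.2 and 183 CPM against 209 and 129 CPM. MT-ND4L was at 15.0 and 12.8 CPM against 18.2 and 6.47 CPM. MT-ND5 was at 68.8 and 64.6 CPM against 68.7 and 38.1 CPM, with a log2 fold change of -0.33 ± 0.17 (SE, adjusted p = 0.18, edgeR). For MT-ND1, MT-ND3, MT-ND4 and MT-ND4L the METTL5-KO libraries fell on both sides of METTL5-WT. Without METTL5-KO replicate 1, the log2 fold changes that were called ran from -0.52 for MT-ND3 and MT-ND4 through -0.80 for MT-ND5 and -0.86 for MT-ND2 to -1.09 for MT-ND4L (adjusted p between 5.5e-08 for MT-ND5 and 0.013 for MT-ND3, edgeR), and MT-ND1 was at -0.22 (adjusted p = 0.055). Without METTL5-KO replicate 2, the 6 ran from -0.10 for MT-ND2 to 0.37 for MT-ND4L, and 0 of them were called. With all libraries, MT-ND2 passed at an unadjusted p under 0.05.

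The complex IV mRNAs, the most abundant of the mRNAs, were not called with all libraries. MT-CO1 was at 606 and 548 CPM in METTL5-WT, against 633 and 572 CPM in METTL5-KO. MT-CO2 was at 291 and 299 CPM against 357 and 289.6 CPM. MT-CO3 was at 934 and 928 CPM against 911 and 822 CPM. Only for MT-CO3 did the genotypes not overlap, with both METTL5-KO libraries below. Their log2 fold changes were 0.06 ± 0.12, 0.12 ± 0.12 and -0.11 ± 0.11 (SE, adjusted p = 0.78, 0.50 and 0.54, edgeR), and 0 of the 3 passed at an unadjusted p under 0.05 or in DESeq2. Without METTL5-KO replicate 2, MT-CO2 was called higher (0.26, adjusted p = 0.011, edgeR), and without replicate 1 it was at -0.015. Together they held 67.3% and 67.7% of mRNA counts in METTL5-WT, against 69.0% and 75.7% in METTL5-KO.
The ATP synthase mRNAs were not called with all libraries, and 0 of the 2 passed at an unadjusted p under 0.05 or in DESeq2. MT-ATP6 was at 40.5 and 42.1 CPM against 54.0 and 26.5 CPM, with METTL5-WT between the METTL5-KO libraries. Its direction rested on which METTL5-KO library was kept. It was called lower without replicate 1 (-0.63, adjusted p = 8.8e-05, edgeR) and higher without replicate 2 (0.38, adjusted p = 0.017, edgeR). MT-ATP8 was the lowest mRNA, at 4.28 and 2.61 CPM against 4.26 and 2.09 CPM.

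The rRNAs were not called with all libraries. MT-RNR1 (ENSG00000211459.2; chrM:648-1601) was at 5014 and 4019.5 CPM in METTL5-WT, against 4792 and 2704 CPM in METTL5-KO. MT-RNR2 (ENSG00000210082.2; chrM:1671-3229) was at 22307 and 19024 CPM against 20918 and 13811 CPM. In both, METTL5-KO replicate 1 was within the METTL5-WT range and replicate 2 below it. The log2 fold changes were -0.28 ± 0.17 and -0.26 ± 0.15 (SE, adjusted p = 0.27 and 0.23, edgeR), and neither passed at an unadjusted p under 0.05 or in DESeq2. Without METTL5-KO replicate 1 both were called lower, at -0.73 and -0.57, and without METTL5-KO replicate 2 they were at 0.07 and 0.0070. The ratio between the rRNAs overlapped between genotypes, with 445 and 473 MT-RNR2 counts per 100 MT-RNR1 counts in METTL5-WT, against 437 and 511 in METTL5-KO.

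The METTL5-KO libraries differed from each other by class. METTL5-KO replicate 2 was below replicate 1 for all 13 mRNAs and both rRNAs, with a median log2 difference of -0.70 for the mRNAs and -0.71 for the rRNAs. It was below for 10 of the 15 tested tRNAs, with a median of -0.08. Between the METTL5-WT libraries the mRNA median was -0.09, and over nuclear genes the median between the METTL5-KO libraries was -0.01. The GC content of the classes is given beside these values, and its part in the difference was not tested. The tested mRNAs had a median GC of 44.3%, the tested tRNAs 37.9% and nuclear genes 47.9%. Nuclear genes in the GC range of the mitochondrial mRNAs (39.6% to 47.7%) had a median log2 difference of -0.11 between the METTL5-KO libraries (4686 genes). Those in the GC range of the tested tRNAs (23.1% to 45.8%) had -0.18 (5815 genes). Only the lowest and highest GC of a class were matched, so GC within the range can differ from that of the class. Removing the GC trend of nuclear genes left all 6 mitochondrial calls in place, added MT-TG and MT-TY as higher and moved the median of the mRNAs from -0.15 to -0.08.

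**Figure D4:**
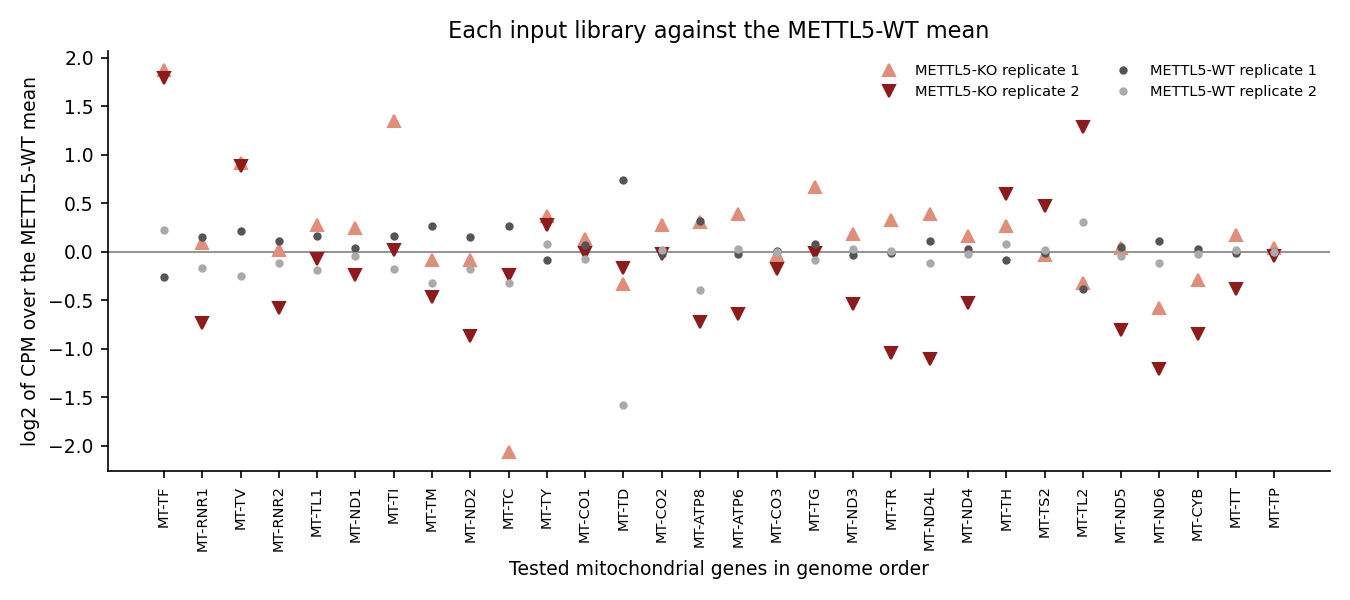
log2 of each library's CPM over the METTL5-WT mean, for the 30 tested mitochondrial genes in genome order; triangles are METTL5-KO and dots METTL5-WT libraries. The METTL5-KO libraries fall together for MT-TF and MT-TV and apart for most mRNAs, where replicate 2 is lower.

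The 7 tRNAs that could not be tested were MT-TQ, MT-TW, MT-TA, MT-TN, MT-TS1, MT-TK and MT-TE. MT-TN and MT-TK had 0 counts in all 4 libraries, MT-TS1 had 1, 0, 1 and 0 counts in METTL5-WT replicates 1 and 2 and METTL5-KO replicates 1 and 2, and MT-TA had 1, 1, 1 and 0. MT-TW had 3 and 1 counts against 1 and 0, and MT-TE had 2 and 12 against 1 and 6. MT-TQ had 9 and 7 counts in METTL5-WT, against 0 and 1 in METTL5-KO, too few for the count filter, and it was called lower when no filter was applied. A count of 0 allows up to 3 counts per library, and these floors cover counting error only.

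The same 7 tRNAs, and none of the other 15, had an exact copy of their whole sequence on a nuclear chromosome of hg38. The nuclear genome holds old insertions of mitochondrial DNA, and the deposited counts used uniquely mapped reads, so a read that fits both places is not counted. Every 30-base window of these 7 tRNAs had an exact nuclear match. MT-TA had 2 whole copies and each of the other 6 had 1. MT-TV also had matches for all of its windows, yet no whole copy, and it was counted at 38.3 to 85.7 CPM. Of the other called tRNAs, MT-TH and MT-TI had matches in 55.0% and 50.0% of windows. MT-TL1 and MT-TT had no window with a nuclear match, and MT-TF, MT-TG and MT-TP had matches in 7.14%, 7.69% and 7.69% of windows. Whether reads of the 7 tRNAs were lost in this way was not tested, and their counts are not read as abundance.
Among longer genes, windows with a nuclear match made up 65.1% of MT-RNR1 and 38.1% of MT-RNR2. In the mRNAs the share ran from 4.73% in MT-ND3 and 7.73% in MT-CYB to 64.7% in MT-ATP6 and 71.1% in MT-CO1. Levels per length of different genes therefore do not rest on the same share of countable sequence. Read lengths were not compared between libraries, so whether both genotypes of 1 gene rest on the same share was not tested. Nuclear genes named as copies of mitochondrial genes numbered 404 in the table, of which 83 had counts. They summed to 484 and 443 counts in METTL5-WT, against 767 and 651 in METTL5-KO, at most 0.205% of the mitochondrial counts. Those counts were mostly rRNA. Set against single mRNAs the copies weighed more. MTND3P19 had 46 and 38 counts against 45 and 37, and MT-ND3 had 242 and 241 against 318 and 233. MTCO1P12, the copy with most counts, had 238 and 199 against 436 and 389, and MT-CO1 had 6791 and 5865 against 8024 and 8751. This copy was called higher (log2 fold change 0.58 ± 0.17 SE, adjusted p = 0.016, edgeR), and the other copies tested were not called.

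**Figure D5:**
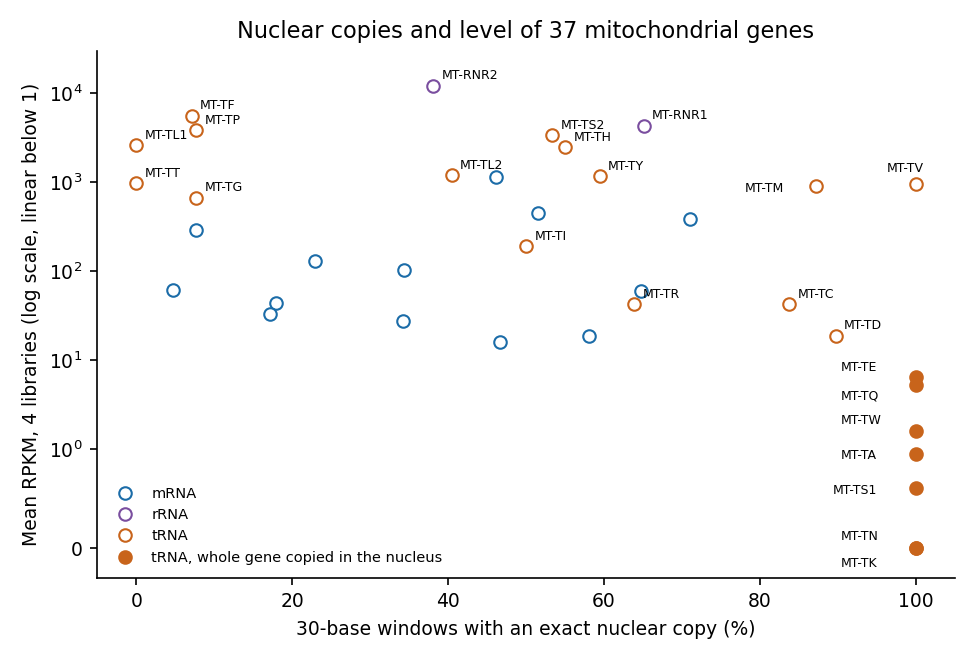
Mean level per length of all 37 mitochondrial genes (RPKM, log scale that is linear below 1) against the percentage of their 30-base windows with an exact match on a nuclear chromosome. Filled points are the 7 tRNAs with a whole nuclear copy, which lie at the bottom right; MT-TV has matches for 100% of windows and stands with the abundant tRNAs.

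Nuclear genes that make, process and modify mitochondrial RNA were read from a list of 60, of which 59 were tested. Of these, 9 were called, 4 higher and 5 lower, against 22.4% of all genes tested. At an unadjusted p under 0.05, 15 passed. The share of all genes at that threshold was not computed, and it is at least the 22.4% that passed after adjustment. The 15, and the counts by role at that threshold, are thus not read as a result about these factors. The median log2 fold change of the 59 was -0.08, and values below are log2 fold changes ± SE from edgeR. Transcription and its termination (8 tested, such as POLRMT and TFAM), stability and decay (9 tested, such as LRPPRC and PNPT1) and rRNA modification (7 tested) had 0 calls in edgeR and in DESeq2, with 2, 0 and 1 genes at an unadjusted p under 0.05. Among 13 processing factors, FASTK, of a family of mitochondrial RNA-binding proteins, was higher (0.51 ± 0.13, adjusted p = 0.0073). Lower were TRNT1, which adds the CCA end to tRNAs (-0.58 ± 0.14, adjusted p = 0.0042), and FASTKD3, of the same family as FASTK (-0.43 ± 0.15, adjusted p = 0.041).
ELAC2, TRMT10C, HSD17B10 and PRORP, which make up the enzymes that cut tRNAs out of the precursor, were not called. ELAC2 was at 68.5 and 66.5 CPM in METTL5-WT, against 64.6 and 66.1 CPM in METTL5-KO, and its log2 fold change was -0.05 ± 0.12. TRMT10C was at 67.0 and 58.7 CPM against 56.9 and 47.6 CPM, a log2 fold change of -0.28 ± 0.13 with an adjusted p of 0.14.

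Of 14 tRNA modification enzymes, 3 were higher and 2 lower. Higher were TRMT1, a guanosine methyltransferase of tRNAs (0.54 ± 0.13, adjusted p = 0.0049), QTRT1, a subunit of the enzyme that inserts queuine (0.47 ± 0.15, adjusted p = 0.025), and PUS1, a pseudouridine synthase (0.42 ± 0.14, adjusted p = 0.029). Lower were CDK5RAP1, which modifies an adenosine next to the anticodon of some mitochondrial tRNAs (-0.62 ± 0.17, adjusted p = 0.011), and QTRT2, the partner of QTRT1 (-0.39 ± 0.13, adjusted p = 0.038). QTRT1 was at 26.0 and 25.2 CPM in METTL5-WT, against 33.5 and 37.4 CPM in METTL5-KO, and QTRT2 was at 79.1 and 70.2 CPM against 63.8 and 51.0 CPM. The subunits of this enzyme thus moved in opposite directions in both METTL5-KO libraries. The exonuclease MGME1, of the genome maintenance group, was also lower (-0.50 ± 0.16, adjusted p = 0.028). DESeq2 kept 3 of the 9 calls, TRNT1, FASTK and TRMT1, and called 14.5% of all genes it tested. The number of factors called changed when single libraries were left out, as did the number over all genes tested. It is therefore not read as a result about these factors.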

How the data were processed

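Input RNA from cleared, cycloheximide-treated lysate was depleted of rRNA once, fragmented and sequenced. Per the labels and the study's methods, the authors trimmed reads, kept those of at least 15 bases, aligned them to hg38 with STAR 2.7.3a and counted uniquely mapped reads over exons by strand. The deposited counts are raw read counts per gene; the header names featureCounts 2.0.1, the submitters' notes 1.6.0. The 4 RPF libraries and the deposited ratio table were not used here. Of the table, 3 lines of 1 broken gene were left out.

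CPM and RPKM were computed from library totals. For the genotype comparison, edgeR 4.0.16 was used (quasi-likelihood test, two-sided, TMM scaling, filterByExpr), with DESeq2 1.42.0 as an alternative; the code was tested on simulated data. The SE printed was computed as the absolute log2 fold change over the square root of the F statistic of the edgeR test. P-values measure only the spread between these samples. Named were all mRNAs and rRNAs, called tRNAs, the 3 tRNAs highest and lowest per length, and called factors. Further tRNAs were named after their values were seen, as neighbours of these or for a library that stood apart. Members and lists were chosen with earlier results of these data known. Coordinates of all 37 genes matched GENCODE 44; nuclear matches were exact, over 24 chromosomes of hg38 and both strands.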

Additional observations from a re-analysis of the deposited data

How the results depend on the processing

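Leaving out single libraries moved the results most. A library left alone in its group was assumed to vary like the others. Calls over all genes then ranged from 1220 to 5474 (3149 with all libraries), mitochondrial genes called higher from 3 to 8, called lower from 0 to 12 (2 of them at an unadjusted p under 0.05 where 0 were called, without METTL5-WT replicate 1), and factors called from 0 to 23. Log2 ratios of class sums ranged from -0.49 to 0.060 for all members, -0.26 to 0.044 for mRNAs, -0.61 to 0.030 for rRNAs and -0.50 to 0.060 for the plus strand. The log2 fold changes of genes that changed sign ranged from -0.73 to 0.075 (MT-RNR1), -0.57 to 0.0070 (MT-RNR2), -0.062 to 0.29 (MT-TL1), -0.22 to 0.23 (MT-ND1), -0.53 to 0.057 (MT-TM), -0.014 to 0.14 (MT-CO1), -0.98 to 1.31 (MT-TD), -0.015 to 0.26 (MT-CO2), -0.71 to 0.29 (MT-ATP8), -0.63 to 0.38 (MT-ATP6), -0.0038 to 0.66 (MT-TG), -0.52 to 0.18 (MT-ND3), -1.03 to 0.31 (MT-TR), -1.09 to 0.37 (MT-ND4L), -0.52 to 0.16 (MT-ND4), -0.039 to 0.48 (MT-TS2), -0.32 to 1.30 (MT-TL2), -0.80 to 0.031 (MT-ND5), -0.37 to 0.16 (MT-TT) and -0.034 to 0.030 (MT-TP). DESeq2 called 3 factors instead of 9. Values near 0 changed sign elsewhere: MT-TT with the GC trend removed (0.0092), and MT-TP without a filter (0.019), with a mean of at least 10 counts in each group (0.00014) and with the GC trend removed (0.15). Without MT-TF, a setting chosen after seeing the data, the log2 ratio of the tRNA sum was 0.23 (0.57 with it). As shares of mitochondrial counts without rRNA, mRNAs differed by -11.2 percentage points (0.70 with rRNA), tRNAs by 11.2 (3.44) and the minus strand by -0.79 (0.23).

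Whether same-numbered replicates were handled together is not given in the sources used here. Their deviations correlated at 0.04 over nuclear genes, which cannot show whether a batch was shared. With the replicate block, 4 mitochondrial genes were called lower instead of 2, MT-ND2 (-0.46) and MT-ND5 (-0.38) being added, MT-TL2 was called higher (0.55) and MT-ND1 was at -0.00083, and all genes gave 3554 calls. Scaling by library totals removed the MT-TI call, as did DESeq2. The cause of these changes was not tested. The 2 libraries per group limit precision, and tRNA and mRNA counts under about 100, as in MT-TC, MT-TD, MT-TR and MT-ATP8, are the least certain.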
